A study of Mus musculus with 8 samples.

Results

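The 10 genes described here are known from polycystic disease of the kidney and liver, in which tubules and bile ducts widen into cysts, or from the pathways studied in it: Pkd1, Pkd2, Pkhd1, Bicc1, Sec63, Prkcsh, Ganab, Alg8, Trpv4 and Lrp5. The rule takes them by name and uses no measured value, although earlier results of these data were known when they were chosen, and all 10 were found among the 46603 rows of the count table. RNA was sequenced from liver cells of 4 mice, JV602, JV621, JV624 and JV6314, each of which gave 1 library of liver label-retaining cells (LLRCs, EGFP+EpCAM+CD45-) and 1 library of non-label-retaining cells (non-LRCs, EGFP-EpCAM+CD45-). All 4 mice, of mixed C57BL/6 and CBA background, carried a single copy of R26rtTA, a doxycycline-dependent activator in the ubiquitously active Rosa26 locus, and of an H2B-EGFP transgene, so both groups carried the same alleles and had the same treatment. Doxycycline was given from birth (day 0) to postnatal day 5 and the cells were sorted at 8 weeks, after the histone-bound label had been diluted in cells that divided. Hematopoietic cells of these mice also make the fusion protein without doxycycline, and CD45+ cells were gated out of both populations. The labels give both libraries of a pair the same mouse, and the p-values below measure the spread of the change between 4 such pairs.

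The primary cilium of a cholangiocyte, the epithelial cell that lines the bile duct, reaches into the duct and senses the flow, tonicity and content of bile. The polycystins and fibrocystin are membrane proteins of this cilium. A second set of cystic disease genes acts in the endoplasmic reticulum (ER), where it carries out the translocation, N-glycosylation and folding of membrane proteins, polycystin-1 among them. Loss of genes from either set is known to give polycystic liver disease, in which ducts widen into cysts, and in both the cyst is lined by cholangiocytes.

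The libraries held between 4670132 and 9851819 counts, and the non-LRC library was the shallower of the pair in every mouse. Values below are TMM-normalised counts (CPM), and 3 counts, which a reading of 0 still allows, corresponded to 0.291 to 0.626 CPM (counting error only). Epcam, the sorted marker, had a level of 583.5 ± 48.6 CPM in LLRCs, against 551.0 ± 148.3 CPM in non-LRCs (SD, n = 4), and none of 8 cholangiocyte markers was at 0 in any library. Among markers of other cells, only the endothelial sums did not overlap between the groups. The summed level of 7 stellate cell and fibroblast markers was 84.2 to 574.9 CPM in LLRCs and 537.1 to 2575 CPM in non-LRCs, highest in the non-LRC libraries of JV624 and JV6314. Summed over 8 endothelial markers it was 23.7 to 40.0 CPM against 126.9 to 403.3 CPM, and over 8 hepatocyte markers 2693 to 3208 CPM against 2036 to 5179 CPM. The 6 pancreatic acinar markers summed to 964.1 CPM in the non-LRC library of JV6314 and to at most 2.38 CPM in the other libraries, and Xist, a transcript of female cells, was read only from the label-retaining cells of JV621, with 120 counts. The paired non-LRC library had 0 counts of it, the cause was not tested, and changes without JV621 are given below. Over 7 hematopoietic markers the sum was 1.45 to 6.55 CPM in LLRCs and 0.626 to 13.9 CPM in non-LRCs, with Cd3e and Cd79a at 0 in every library. The part of these cells in the results below was not tested, and in bulk libraries fewer cells of a type and less RNA per cell cannot be told apart.

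To learn which of the disease genes were read most for their length, levels were compared per kilobase of exon, since long transcripts gather more reads. This takes reads to cover a transcript evenly, which was not tested. Pkd2, Bicc1 and Pkhd1 had the highest means in both populations, and together they took 82.0 to 91.0% of all member counts in LLRC libraries and 68.6 to 83.8% in non-LRC libraries. In LLRCs the order of the levels was Pkd2 (38.6 ± 9.83 CPM per kilobase), Bicc1 (27.2 ± 2.62), Pkhd1 (26.4 ± 5.21), Ganab (10.3 ± 3.85), Sec63 (6.25 ± 2.33), Alg8 (5.40 ± 0.66), Prkcsh (4.78 ± 1.84), Trpv4 (1.05 ± 1.04), Pkd1 (0.192 ± 0.092) and Lrp5 (0.045 ± 0.022; SD, n = 4 for each). In LLRCs the leading 3 genes lay above 86.8 to 91.0% of the tested genes with a known exon length (79.0 to 87.6% in non-LRCs). Pkd1 lay above 1.30% of them (4.61% in non-LRCs). Most neighbours in this order overlapped between libraries. Only 3 steps separated all 4 libraries of a gene from those of the next: from Pkhd1 to Ganab, from Prkcsh to Trpv4 and from Pkd1 to Lrp5. Non-LRCs had the same order except that Prkcsh (6.93 ± 1.36 CPM per kilobase) stood before Alg8 (4.50 ± 3.73), and there every gene overlapped with the next. With the length of the longest transcript, Ganab (18.5 CPM per kilobase) passed Pkhd1 (18.0) in non-LRCs, within the spread of both.

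**Figure D1:**
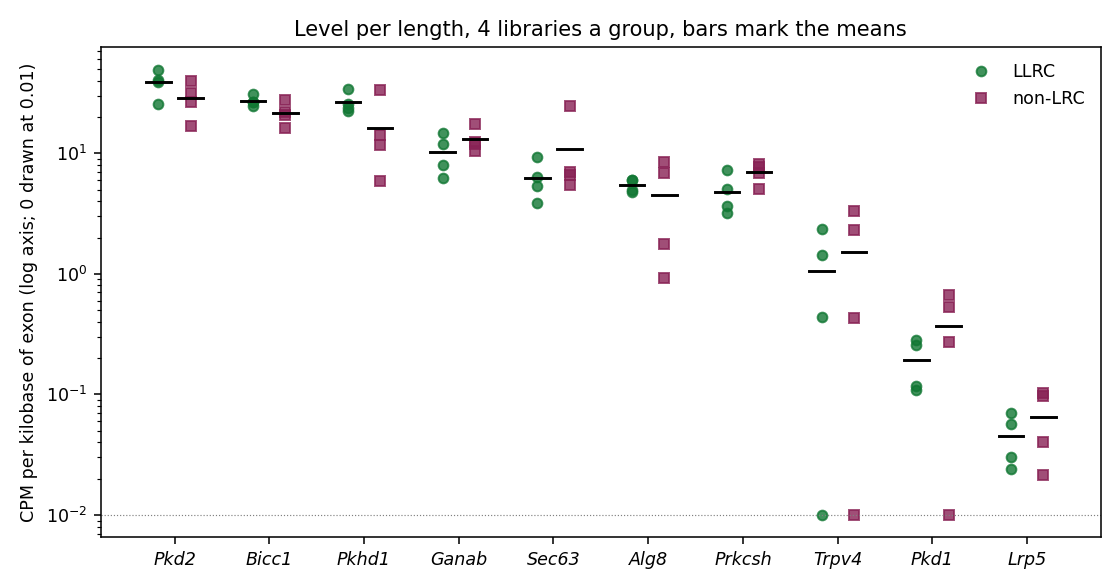
CPM per kilobase of exon on a log axis for the 10 genes in the order of their LLRC means, with a point for each of 4 LLRC and 4 non-LRC libraries and a bar at each group's mean; libraries at 0 are drawn on the dotted line at 0.01. Pkd2, Bicc1 and Pkhd1 stand at 16.3 CPM per kilobase or more on average in both groups, and Pkd1 and Lrp5 stand below 1 in every library.

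The polycystin genes, whose proteins form a complex, stood far apart in this order, with Pkd2 first and Pkd1 last but for Lrp5. Per kilobase, mean Pkd2 was 201 times Pkd1 in LLRCs and 77.8 times in non-LRCs with exon lengths, and 319 and 123 times with the length of the longest transcript. Pkd1 has a long and GC-rich transcript, at 56.8% GC in 14164 bases, more than in 89.3% of tested genes. Levels in these libraries fell with GC content over all genes: of 4 equal groups of tested genes by transcript GC, the lowest had a median level of 7.61 CPM per kilobase in LLRCs and the highest 2.47, and in non-LRCs it was 7.57 and 2.92. The other members in that highest group were Prkcsh (57.4%), Trpv4 (59.0%) and Lrp5 (54.7%). Pkd2 (49.0%), Bicc1 (48.8%) and Pkhd1 (47.4%) were near the median of 48.8%, and Sec63 had the lowest GC of the members (43.5%). The part of GC content in the order of the levels was not tested.

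To see what precedes these genes, the 240 bases from 250 to 11 bases before each RefSeq start were read from RefSeq's GRCm38.p6 promoter table, which held 8 of the 10 members and not Bicc1 or Lrp5. The windows of Pkd1 (to chr17:24549939) and Prkcsh (to chr9:22002977) run past the gene starts given below, 24549834 and 22002806. The GC box GGGCGG, the letters bound by Sp1, stood on either strand in 4 windows (Pkd1, Sec63, Alg8 and Trpv4) of these 8, against 31.3% of all 32851 windows. The following windows are shown because they hold few and many of these letters: Pkhd1 (chr1:20618068-20618307, minus strand) has no GC box and 3 CpG dinucleotides, the fewest of the 8, and Sec63 (chr10:42761246-42761485, plus strand) has 4 GC boxes, as many as Pkd1, and 17 CpGs, where the median of all windows was 5. Capitals mark the CpGs in Pkhd1 and the GC boxes in Sec63.
Pkhd1: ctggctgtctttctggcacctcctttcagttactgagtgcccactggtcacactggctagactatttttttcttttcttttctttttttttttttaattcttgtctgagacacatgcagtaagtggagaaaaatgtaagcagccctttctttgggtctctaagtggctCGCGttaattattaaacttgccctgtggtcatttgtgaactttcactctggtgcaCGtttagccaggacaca
Sec63: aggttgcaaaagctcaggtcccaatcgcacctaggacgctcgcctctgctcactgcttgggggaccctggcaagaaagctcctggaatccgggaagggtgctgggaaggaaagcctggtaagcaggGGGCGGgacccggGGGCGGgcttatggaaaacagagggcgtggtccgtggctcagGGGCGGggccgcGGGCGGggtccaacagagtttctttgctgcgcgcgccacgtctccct
A match of letters is a description of the window and not a binding site.

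The question of the comparison was whether the disease genes differ between cells that kept the label and those that lost it. No member passed the threshold in edgeR's quasi-likelihood test with the mouse as a block. Of the 10 members, 9 passed the filter on low counts, and 0 of these 9 had an adjusted p below 0.05, where 0 of all 13605 genes tested (0%) had one. At an unadjusted p below 0.05 the members again numbered 0, against 569 of all genes (4.18%; 1.72% higher and 2.46% lower in LLRCs), and their adjusted p was 1 in each case. Log2 fold changes, given throughout as LLRC over non-LRC, were positive for 4 members (Pkhd1, Alg8, Pkd2 and Bicc1) and negative for 5 (Prkcsh, Sec63, Ganab, Trpv4 and Pkd1), with a median of -0.26. All tested genes had a median of 0.14, and 60.5% of them were positive. No member was higher in the LLRC library of every mouse (7.74% of all genes were) or lower in every mouse (5.53%), and none had groups that did not overlap (2.15% of all genes stood higher and 1.91% lower in this way). With 4 mice, an exact two-sided sign-flip test cannot go below p = 0.125, and the smallest value for a member was 0.25. Without JV621, the pair with unequal Xist, fitted changes were 1.10 for Alg8, 1.06 for Pkhd1, 0.60 for Pkd2, 0.49 for Bicc1, 0.25 for Pkd1, -0.30 for Sec63, -0.35 for Ganab, -0.55 for Prkcsh and -2.41 for Trpv4, and only that of Pkd1 changed sign.

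**Figure D2:**
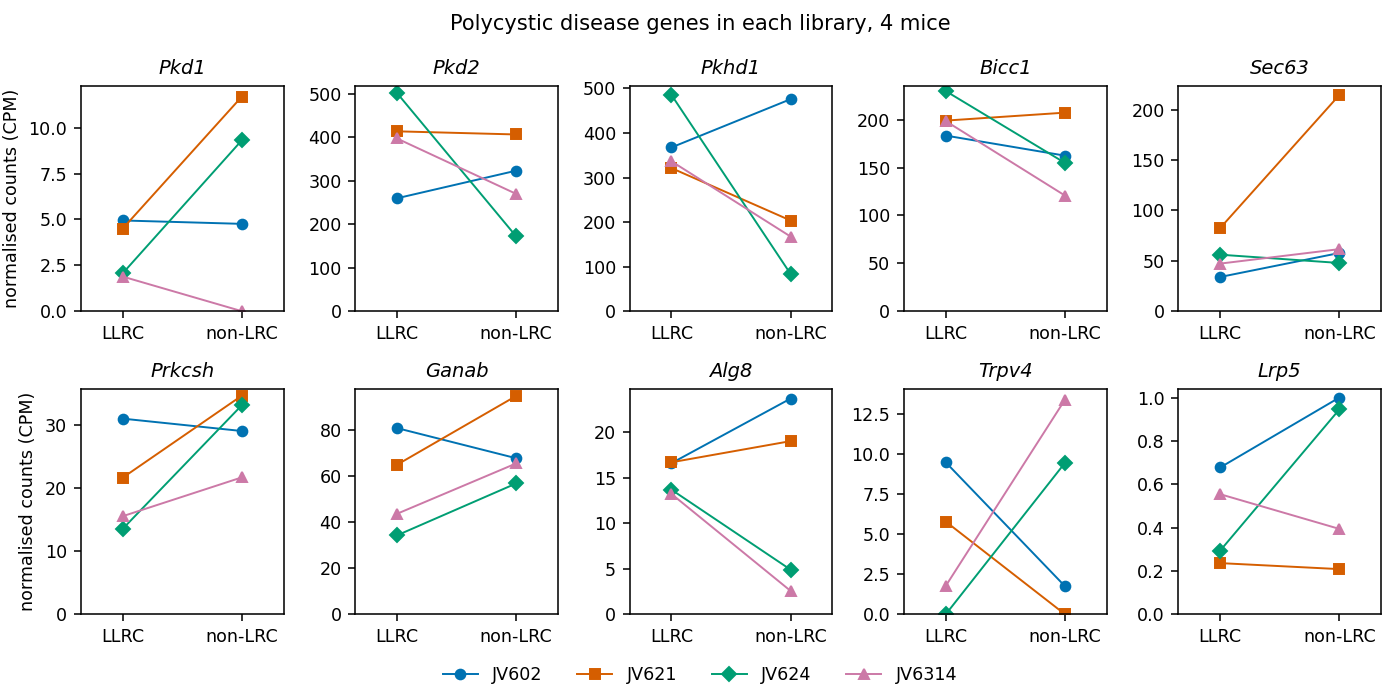
CPM of the 10 genes in the LLRC and the non-LRC library of each mouse; a line joins both libraries of an animal, and each panel has its own axis from 0. Pkhd1, Pkd2 and Bicc1 are higher in the LLRC library of 3 of 4 mice, Sec63, Prkcsh and Ganab are lower in 3 of 4, and the lines of Trpv4 cross.

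Pkhd1 encodes fibrocystin, the protein lost in autosomal recessive polycystic kidney disease and congenital hepatic fibrosis, and had the highest fitted fold change of the members. Its level was 367.6, 321.3, 485.8 and 336.6 CPM in LLRCs (mice always in the order JV602, JV621, JV624, JV6314), and their non-LRCs gave 476.0, 203.6, 83.5 and 167.5 CPM. The LLRC libraries lay close together, with a coefficient of variation of 19.7%, and the non-LRC libraries spread over 73.0%. LLRCs were higher in 3 mice, by 1.58-fold in JV621, 5.82-fold in JV624 and 2.01-fold in JV6314, and lower in JV602, at 0.772 of the non-LRC level. The fitted log2 fold change was 0.94 (SE 0.51, 95% interval -0.30 to 2.19, unadjusted p = 0.113 and adjusted p = 1 in edgeR's quasi-likelihood test). Without JV624 it was 0.44 (unadjusted p = 0.298) and without JV602 it was 1.37 (unadjusted p = 0.042 in the same edgeR test), and its smallest adjusted p over the settings run was 0.700, in the DESeq2 Wald test. Cftr, the chloride channel of the bile duct and a cholangiocyte marker, had the same order of mice, with ratios of 0.945, 2.31, 10.2 and 3.29. Its log2 fold change was 1.53 (SE 0.60, 95% interval 0.06 to 3.01, unadjusted p = 0.044 and adjusted p = 1 in the same edgeR test). Of all genes tested, 4.18% had an unadjusted p below 0.05. The sum of the cholangiocyte markers was lowest, at 65366 CPM, in the non-LRC library of JV624. Spp1 made up 98.3% of that sum, the other 7 markers came to 1117 CPM there and 856.0 to 1518 CPM over the 8 libraries, and Krt19 was at its highest in that library (172.4 CPM). The gene spans chromosome 1 from 20057779 to 20618064 on the minus strand of GRCm38.

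Pkd2, on chromosome 5 from 104459450 to 104505819, encodes polycystin-2, a cation channel mutated in autosomal dominant polycystic kidney disease. It stood at 259.5, 413.4, 501.4 and 396.9 CPM in LLRCs, and 323.0, 406.1, 171.7 and 269.5 CPM in non-LRCs. The difference was largest in JV624, where LLRCs were 2.92-fold higher, with 1.47-fold in JV6314, 1.02-fold in JV621 and 0.803 in JV602. The log2 fold change was 0.45 (SE 0.37, 95% interval -0.47 to 1.36, unadjusted p = 0.277), and it was 0.09 (unadjusted p = 0.769) without JV624, so most of it rested on that mouse. Without JV602 the log2 fold change was 0.69. Because fibrocystin and polycystin-2 act together at the cilium, their counts were also set against each other within a library, which needs no scaling between libraries. For each Pkd2 count there were 1.42, 0.777, 0.969 and 0.848 Pkhd1 counts in LLRCs, against 1.47, 0.501, 0.486 and 0.622 in non-LRCs. Pkhd1 thus exceeded Pkd2 in both libraries of JV602 and in no other, and the 2 groups overlapped.

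Pkd1, on chromosome 17 from 24549834 to 24596508, encodes polycystin-1, the receptor-like partner of polycystin-2 and the gene behind most dominant polycystic kidney disease. Its reads were few: LLRCs gave 51, 38, 14 and 17 counts, and non-LRCs 38, 56, 59 and 0. In CPM these were 4.94, 4.49, 2.06 and 1.89 against 4.76, 11.7, 9.31 and 0, and the single library at 0 allowed up to 0.592 CPM. LLRCs were lower in JV621 and JV624 and higher in the other pair of mice, and the log2 fold change was -0.26 (SE 1.34, 95% interval -3.55 to 3.02). It was 0.25 without JV621 and 0.55 without JV624. Of the exon bases of Pkd1, 3.98% are shared with Tsc2 on the other strand, and the reads were counted without strand, so reads from this overlap cannot be assigned.

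Trpv4, a calcium-permeable channel by which cholangiocytes sense tonicity, is on chromosome 5 from 114622152 to 114658421 and split the mice into pairs. LLRCs gave 98, 49, 0 and 16 counts of it, and non-LRCs 14, 0, 60 and 68. LLRCs were 5.42-fold higher in JV602 and non-LRCs were 7.55-fold higher in JV6314, and in JV621 and JV624 the lower library was at 0. In CPM the groups had means of 4.27 ± 4.25 and 6.16 ± 6.35 (SD, n = 4), each with an SD as large as its mean. The fitted log2 fold change of -0.31 had an SE of 3.16, and was 1.92 without JV624 and 1.76 without JV6314.

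**Figure D3:**
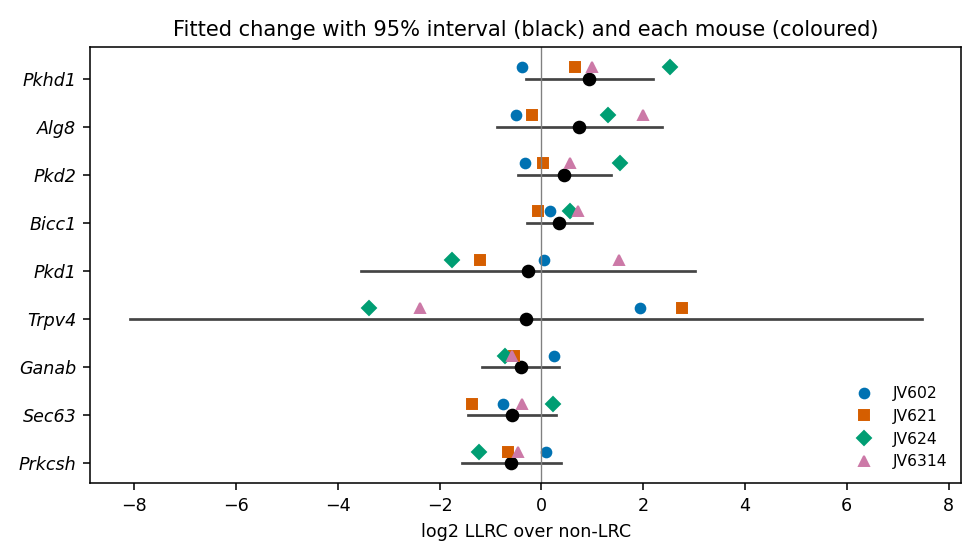
Fitted log2 fold change (LLRC over non-LRC) of the 9 tested members in black with its 95% interval, and the log2 ratio of each mouse (of CPM + 1) as coloured points above it. Every interval includes 0; those of Bicc1 and Ganab are the narrowest, and those of Pkd1 and Trpv4, which have libraries at 0, are the widest.

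Bicc1 encodes an RNA-binding protein with KH and SAM domains, and mice that lack it develop cystic kidneys and bile ducts. It was the steadiest of the highly read members. Its level was 183.4, 199.1, 229.9 and 198.5 CPM in LLRCs, against 162.4, 207.4, 154.8 and 120.8 CPM in non-LRCs, with coefficients of variation of 9.62% and 22.1%. LLRCs were higher by 1.13-fold in JV602, 1.48-fold in JV624 and 1.64-fold in JV6314, and JV621 stood at 0.960. The log2 fold change was 0.35 (SE 0.26, 95% interval -0.29 to 0.99, unadjusted p = 0.225), and it was 0.23 without JV6314. The gene is on chromosome 10 from 70922832 to 71159700 on the minus strand, and shares 4.69% of its exon bases with the RIKEN gene 4930533K18Rik on the other strand.

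Of the 4 disease genes of the ER, Sec63, Prkcsh and Ganab were each lower in LLRCs in 3 of 4 mice and Alg8 in 2 of 4, and none passed the test. Sec63, on chromosome 10 from 42761496 to 42832514, encodes a translocon partner that brings the chaperone BiP to the channel, and was measured at 33.9, 82.4, 56.0 and 47.2 CPM in LLRCs, against 57.7, 214.5, 47.8 and 61.6 CPM in non-LRCs. Both libraries of JV621 were the highest of their group, and its non-LRC library stood far from the other 3. The log2 fold change was -0.58 (SE 0.36, 95% interval -1.45 to 0.30, unadjusted p = 0.157), and it was -0.30 without JV621.

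Prkcsh and Ganab encode the beta and alpha subunits of glucosidase II, the enzyme that trims glucose from newly made N-glycans, and Prkcsh is the gene most often mutated in isolated polycystic liver disease. Prkcsh (chromosome 9, 22002806 to 22014222) gave 31.0, 21.6, 13.5 and 15.5 CPM in LLRCs, against 29.1, 34.7, 33.1 and 21.7 CPM in non-LRCs. Ganab (chromosome 19, 8898071 to 8916672) gave 80.8, 64.9, 34.3 and 43.6 CPM in LLRCs, against 67.8, 94.8, 56.8 and 65.5 CPM in non-LRCs. Both subunits had the same sign in each mouse: LLRCs were higher in JV602, by 1.07-fold for Prkcsh and 1.19-fold for Ganab, and lower in the other 3 mice, at 0.624, 0.408 and 0.716 of the non-LRC level for Prkcsh and 0.685, 0.603 and 0.666 for Ganab. The log2 fold changes were -0.59 (SE 0.39, unadjusted p = 0.187) and -0.40 (SE 0.31, unadjusted p = 0.238), with 95% intervals of -1.56 to 0.38 and -1.16 to 0.35. Without JV624 the value of Prkcsh was -0.35, and without JV602 that of Ganab was -0.64. Per library, Prkcsh had 0.333 to 0.395 counts for each Ganab count in LLRCs and 0.331 to 0.583 in non-LRCs, the highest being JV624.

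Alg8 (chromosome 7, 97371606 to 97392185), a glucosyltransferase that builds the lipid-linked precursor of N-glycans, had a positive fitted change. It stood at 16.6, 16.7, 13.7 and 13.2 CPM in LLRCs, a narrow range with a coefficient of variation of 12.3%, and at 23.7, 19.0, 4.89 and 2.57 CPM in non-LRCs, with a coefficient of 82.9%. The non-LRC libraries of JV624 and JV6314, with 31 and 13 counts, gave LLRC to non-LRC ratios of 2.80 and 5.15, and JV602 and JV621 gave 0.700 and 0.878. The log2 fold change was 0.75 (SE 0.66, 95% interval -0.88 to 2.38, unadjusted p = 0.303). It was 0.24 without JV6314, 0.47 without JV624 and 1.20 without JV602, and 0.26 without the block. Lrp5 (chromosome 19, 3584828 to 3686564), a co-receptor for Wnt ligands with variants in polycystic liver disease, had 1 to 8 counts in a library and 33 in all. It did not pass the filter and was not tested.

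Over all genes, the change in a mouse varied with GC content. In JV624 the median log2 difference of tested genes was 0.55 in the lowest of the 4 GC groups and -0.53 in the highest, and in JV6314 it was 0.43 and -0.19. In the other mice the order was the reverse, at -0.16 and 0.18 in JV602 and 0.12 and 0.38 in JV621. The members followed this only in part. In JV624, Pkhd1 (2.53), Pkd2 (1.54) and Alg8 (1.32) stood above Prkcsh (-1.23), Pkd1 (-1.75) and Trpv4 (-3.39), which are richer in GC, but Sec63, the poorest in GC, was at 0.22. In JV6314, Alg8 (2.00), Pkhd1 (1.00) and Trpv4 (-2.38) stood in the order of all genes, and Pkd1 (1.53) and Sec63 (-0.38) did not. In JV621, Sec63 (-1.37) and Trpv4 (2.76) stood in that order, and Pkd1 (-1.21) and Prkcsh (-0.66) did not. Each member was also compared with the median of its own GC group in the same mouse, a comparison chosen after these values were seen. All 9 members kept the sign of their fitted change, but this comparison could hardly have changed a sign. The median fitted change was only 0.31 in the lowest GC group and 0.01 in the highest. Sec63, in the lowest group, was already negative. Sec63 was then lower in LLRCs in 4 of 4 mice, by a mean log2 difference of -0.80 (SD 0.50), and so was Prkcsh, by -0.52 (SD 0.43), where 7.56% of all genes were lower in every mouse on this measure and 6.89% higher. The difference of Prkcsh in JV602 was only -0.08. Pkhd1 (0.82, SD 1.14) and Bicc1 (0.32, SD 0.57) were higher in 3 of 4 mice, Pkd2 (0.42, SD 0.99), Alg8 and Trpv4 in 2, and Ganab and Pkd1 in 1.

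**Figure D4:**
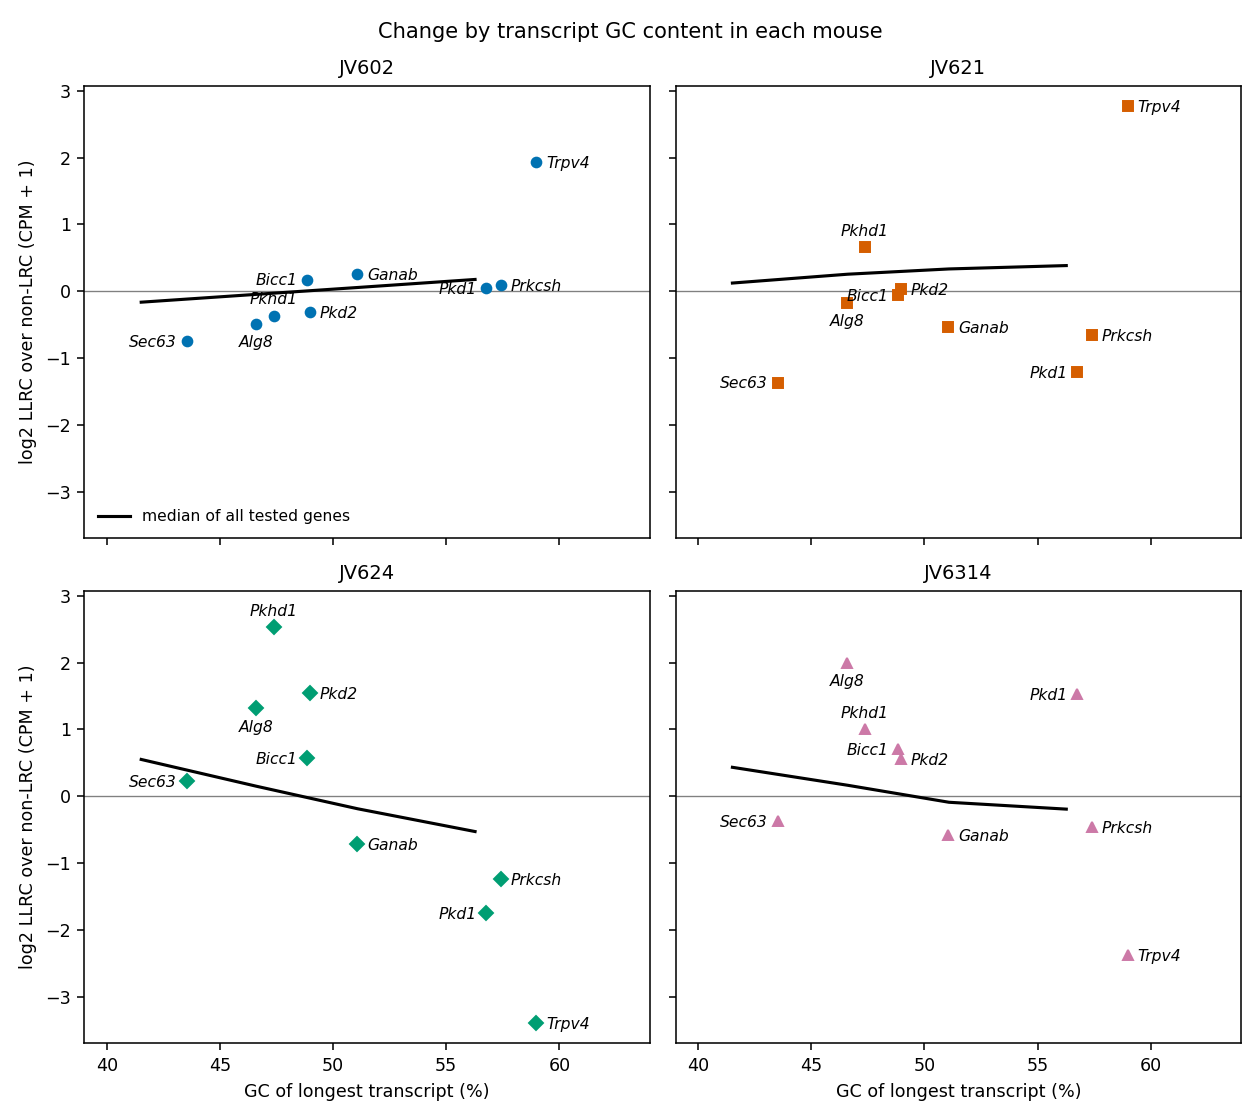
Log2 difference (LLRC over non-LRC, CPM + 1) of the 9 tested members against the GC content of their longest transcript, 1 panel a mouse, with a black line through the medians of all tested genes in each of 4 equal groups by GC content. The line falls from 0.55 to -0.53 in JV624 and rises slightly in JV602, and in JV624 Pkhd1, Pkd2 and Alg8 lie above it and Pkd1, Prkcsh and Trpv4 below it.

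As the cells of interest were sorted by EpCAM, the 7 members read in all 8 libraries and tested were also expressed per Epcam count of the same library, again chosen after seeing the data. Bicc1 was then higher in LLRCs in 4 of 4 mice, by a mean log2 difference of 0.24 (SD 0.21), and Sec63 and Prkcsh were lower in 4 of 4, by -0.69 (SD 0.45) and -0.70 (SD 0.67). In JV602, however, the difference was only 0.03 for Bicc1 and -0.05 for Prkcsh. Of the 10719 tested genes read in every library, 3.3% were higher and 8.55% lower in every mouse on this measure. Each of these 3 had p = 0.125 in an exact two-sided sign-flip test, the smallest that 4 mice allow, unadjusted over 7 genes. Pkhd1 (0.84, SD 1.11), Pkd2 (0.34, SD 0.68) and Alg8 (0.67, SD 1.24) were higher in 3 of 4 mice, and Ganab (-0.52, SD 0.52) in 1 of 4.

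**Figure D5:**
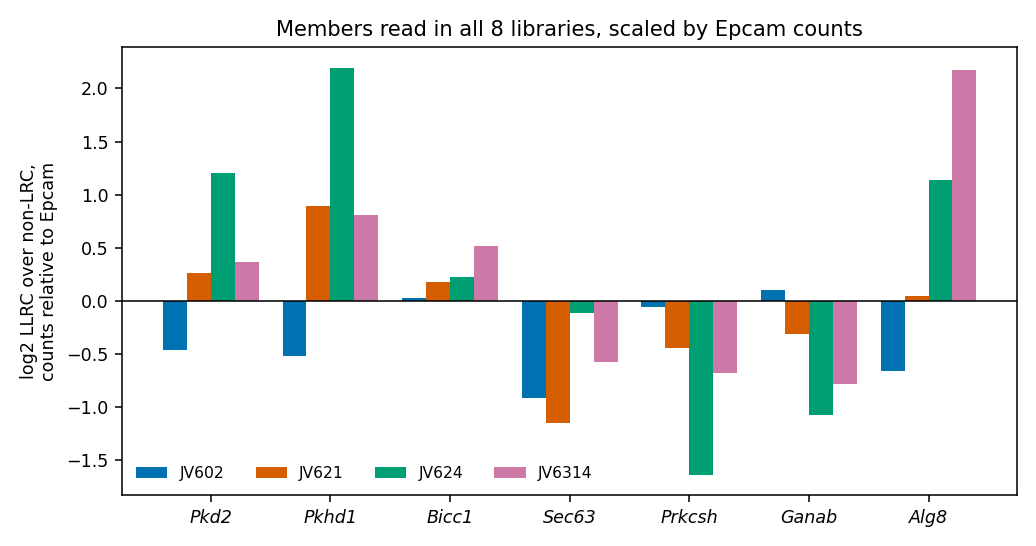
Log2 difference between the LLRC and the non-LRC library of each mouse in counts relative to Epcam, for the 7 members read in every library and tested; each bar is 1 mouse. The 4 bars of Bicc1 lie above 0, those of Sec63 and Prkcsh lie below 0, and the bars of Pkhd1 reach from -0.52 to 2.19. In JV602 the bars of Bicc1 (0.03) and Prkcsh (-0.05) are close to 0.

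The wider set of cystic disease genes gave no call either, where 0 of all 13605 genes tested had an adjusted p below 0.05. Of 13 further genes of polycystic kidney or liver disease, 13 were tested. Of these, 7 had a positive and 6 a negative log2 fold change (60.5% of all genes were positive). Their median of 0.15 was close to the 0.14 of all genes, and 0 had an unadjusted p below 0.05 (4.18% of all genes). They reached from -1.03 (SE 0.60) for Ift140, a subunit of the retrograde intraflagellar transport complex, to 0.99 (SE 0.85) for Nek8, a ciliary kinase.

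The ER list held 14 genes of translocation and N-glycosylation around Sec63, Prkcsh, Ganab and Alg8. All 14 were tested, and they were split evenly with 7 positive and 7 negative (60.5% of all genes were positive). They had a median of 0.00, and 0 had an unadjusted p below 0.05 (4.18% of all genes). Their extremes were Alg6 (1.05, SE 1.27), the glucosyltransferase that acts just before Alg8, and Alg10b (-0.71, SE 0.89), which acts just after it. Of 6 partners of Bicc1 and of the ciliary inversin module, 5 were tested and all 5 had a positive log2 fold change, with a median of 0.72 and 0 unadjusted p below 0.05 (4.18% of all genes), where 60.5% of all genes were positive with a median of 0.14. The untested partner, Anks6, went the other way: it averaged 0.843 CPM in LLRCs, against 1.98 CPM in non-LRCs, and was lower in 4 of 4 mice, as were 5.53% of the genes tested. The highest was Anks3 (0.97, SE 0.66), an ankyrin-repeat protein that binds Bicc1, with averages of 16.6 and 11.2 CPM and higher in LLRCs in 4 of 4 mice, as were 7.74% of the genes tested, and the lowest was Glis2 (0.12, SE 0.57), a zinc finger factor, whose group means ran against the sign of the fit (31.7 CPM for LLRCs, 48.9 CPM for non-LRCs). Among 10 genes of cyclic AMP signalling, the pathway known to drive fluid into cysts, 4 passed the filter, from Pde3a (-0.69, SE 1.53) to Adcy6 (1.04, SE 1.28), with a median of 0.08 and 0 with an unadjusted p below 0.05 (4.18% of all genes).

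Most paralogs of the members were barely read. Of 14 genes related to Pkd1, Pkd2, Pkhd1, Trpv4 and Lrp5, 4 passed the filter, and the other 10 had at most 46 counts in any library. The tested paralogs ran from Pkhd1l1 (-2.46, SE 3.31), a fibrocystin relative, to Lrp4 (0.69, SE 0.69), 0 of them had an unadjusted p below 0.05 (4.18% of all genes), and their median was 0.05. In contrast to Lrp5, the Wnt co-receptor Lrp6 averaged 89.3 CPM in LLRCs, with 87.3 CPM in non-LRCs.

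To find genes with like patterns, log2(CPM + 1) was correlated over the 8 libraries with 8365 genes or more of at least 10 CPM; the values are descriptions, since the libraries share mice, depth and GC trends and many genes were ranked. Pkd2 went most closely with Vbp1 (Pearson r = 0.981), Gm7292 (0.981) and Sdcbp (0.977), and Pkhd1 with Zfp934 (0.968), Zfp386 (0.966) and Snupn (0.960). The 7 cholangiocyte markers at this level did not share 1 pattern with the members. Pkd2 had r from -0.89 with Krt19 and -0.51 with Krt7 to 0.894 with Cftr and 0.961 with Spp1, and Pkhd1 from -0.55 with Krt19 to 0.790 with Spp1 and 0.890 with Cftr. Epcam, Sox9 and Cldn4 lay between these, at 0.653, 0.300 and 0.109 for Pkd2 and 0.378, 0.159 and 0.261 for Pkhd1. Bicc1 was nearest to Elk4 (0.994), Myh10 (0.966) and Tox3 (0.964), and Pkd1 to Ogfr (0.989), Rab5b (0.978) and Rspry1 (0.973). Among the members, r was 0.721 for Pkd2 with Pkhd1, 0.710 for Pkd2 with Bicc1, 0.532 for Pkhd1 with Bicc1 and -0.15 for Pkd1 with Pkd2.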

How the data were processed

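RNA of sorted LLRCs and non-LRCs from 4 mice was sequenced, 8 libraries in all. The authors deposited raw counts per gene, made with HTSeq in union mode on exons of GRCm38.p4 without strand; the aligner is not given in the sources used here. Their table of an edgeR 3.2.4 comparison (fold changes, abundance, p-values and adjusted p-values) was not used. Counts carried 4670132 to 9851819 reads per library. From them, edgeR 4.0.16 in R 4.3.3 gave TMM scaling and the filterByExpr filter (minimum count 10, 13605 of 46603 genes). The quasi-likelihood test was run in its older (legacy) form, with mouse and group as terms. Benjamini-Hochberg adjustment was over all genes tested, at 0.05. The SE is the size of the fold change over the square root of the F statistic. Levels per kilobase used the union of exons in GENCODE M21, and GC content its longest transcript. The labels name the mouse of each library, and the samples were paired by it; after centring on the group means, both libraries of an animal correlated at r = 0.0898, 0.0985, 0.00397 and 0.188. Alternatives used DESeq2 1.42.0 and limma 3.58.1, and the test was run on simulated data first.

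Symbols matched 46091 of 46603 identifiers, and 512 had none. The members, gene lists and tests were chosen with earlier results of these data known. Named genes were all members and, from each list, genes with an unadjusted p below 0.05 or groups that do not overlap, and the highest and lowest fold change among genes tested; the 3 nearest genes were named for 4 members. The cholangiocyte markers, Anks6, Xist and Lrp6 were named beside a result. No protein sequence was used here.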

Additional observations from a re-analysis of the deposited data

Results flagged for a closer look

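Of 20 groups of 4 libraries examined (10 members in 2 populations), 1 held a library far from the others, about as many as chance gives at 1 in 20. Sec63 stood at 214.5 CPM in the non-LRC library of JV621, against 47.8, 57.7 and 61.6 CPM in the other non-LRC libraries, and the gap took 0.918 of the range, above Dixon's critical value of 0.829. The LLRC library of the same mouse, at 82.4 CPM, was the highest LLRC library for Sec63 too. The cause was not tested.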

How the results depend on the processing

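In every one of 13 alternative settings with a test, 0 members had an adjusted p below 0.05. The number of genes called over all genes was 0 with the mouse block and also in the unpaired fit with no replicate block (0 genes, 702 at an unadjusted p below 0.05), with other scalings, other filters and limma, and in each fit without 1 mouse (0 to 0). It was 52 with the newer quasi-likelihood dispersion, 311 with the DESeq2 Wald test and 115 with the edgeR exact test without block or filter; the cause was not tested. Without the block, log2 fold changes ran from -0.94 for Pkd1 to 0.70 for Pkhd1 and no sign changed. The median over all genes moved from 0.14 to -0.01 in that fit, to 0.25 without a filter and to 0.04 in limma. Of 124 values of members under alternatives, 120 kept their direction. Leaving out 1 mouse took Pkd1 from -1.16 to 0.55 (0.25 without JV621) and Trpv4 from -2.45 to 1.92 (1.76 without JV6314). Members higher in every mouse numbered 0, and 1 (Bicc1) when scaled by library size only, with 0 to 2 when a mouse was left out (Pkd2 and Pkhd1 without JV602, Bicc1 without JV621). Members lower in every mouse numbered 0, and 1 (Sec63) by library size only, with 0 to 2 when a mouse was left out (Prkcsh and Ganab without JV602, Sec63 without JV624). With the length of the longest transcript, LLRC levels were 75.3 CPM per kilobase for Pkd2 and 37.3 for Bicc1, and Prkcsh (9.17) came before Sec63 (9.10). The low counts of Pkd1, Trpv4 and Lrp5 limit what these libraries can show of them.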
